A study of Homo sapiens with 6 samples.

Results

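A set of 10 genes of autophagosome formation was followed in BE(2)-C cells, an established human neuroblastoma line, after 2 days with 10 µM NCT-503 or with its vehicle DMSO. They were chosen by name from the table of array values, and all 10 of 10 had a row among the 14779 genes tested. They are the ATG8 genes GABARAPL1, GABARAP, GABARAPL2 and MAP1LC3B, the cargo receptor gene SQSTM1, and ATG7, ATG3, ATG12, ATG5 and ATG16L1 of the conjugation machinery. NCT-503 blocks PHGDH, the enzyme that opens serine synthesis, and no allele or other agent is named for either group. Total RNA of 3 samples per group was hybridised to Affymetrix whole-transcript arrays, 1 sample per array. All samples are of 1 line grown in medium with serum. The labels call the samples independent without saying that they were separate cultures, and the p-values then cover only the spread seen among these arrays, which may be technical.

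Autophagy encloses cytoplasm in a double membrane that fuses with lysosomes. ATG8 proteins are small ubiquitin-like proteins that are joined to the lipid phosphatidylethanolamine in that membrane, where they recruit cargo receptors such as SQSTM1 and help the vesicle mature. ATG7 activates ATG8 proteins and ATG12, ATG3 passes ATG8 proteins to the lipid, and a complex of ATG12 joined to ATG5 with ATG16L1 directs where this happens. The arrays measured transcripts; lipid conjugation, protein levels and autophagic flux were not measured.

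Values are the deposited log2 expression values. A change is the mean log2 value with NCT-503 minus that with DMSO (n = 3 each), given with its standard error (SE) from limma. A gene was called where its Benjamini-Hochberg adjusted p from limma, over all 14779 genes, was under 0.05. In NCT-503-treated cells 3 of the 4 ATG8 genes of the set and SQSTM1 rose, by 1.47-fold to 2.46-fold, whereas ATG5 and ATG16L1 fell, by 0.36 and 0.53 on the log2 scale. GABARAPL2, ATG7, ATG3 and ATG12 were not called. In these bulk samples a change in the share of cells that carry a transcript and a change in its level per cell cannot be told apart. Called genes thus made up 6 of the 10, 4 higher and 2 lower, against 33.5% of all genes tested, 16.4% higher and 17.1% lower. The groups did not overlap in 9 of the 10, against 47.9% of all genes tested. The median change of the 10 was 0.10, and that of all genes tested was 0.06.

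The arrays carried the line's own markers. Of 10 adrenergic neuroblastoma markers 7 had a row, among them DBH at 10.32 to 10.46 in NCT-503 arrays and 9.95 to 10.17 in DMSO arrays. These markers moved in both directions: DBH, GATA3 and PHOX2A rose, CHGA fell by 1.23 on the log2 scale, HAND2 by 0.30 and ISL1 by 0.29, and the median change of the 7 was -0.16. Over all rows of the arrays, named or not, medians were 4.32 to 4.33 in NCT-503 arrays and 4.30 to 4.31 in DMSO arrays. The 75th percentiles of all rows lay between 6.03 and 6.08 in NCT-503 arrays and between 6.16 and 6.19 in DMSO arrays. Of 10 measured epithelial, endothelial, fibroblast and glial markers only DCN was called, lower. Of 5 leukocyte markers 2 were measured: CD14 was not called (-0.09), and CD68, which also encodes a lysosomal membrane protein, rose 4.76-fold. The summed level of both, as 2 to the power of the log2 values, was 337 to 388 in NCT-503 arrays and 77.7 to 96.4 in DMSO arrays, and its part in the results was not tested.

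**Figure D1:**
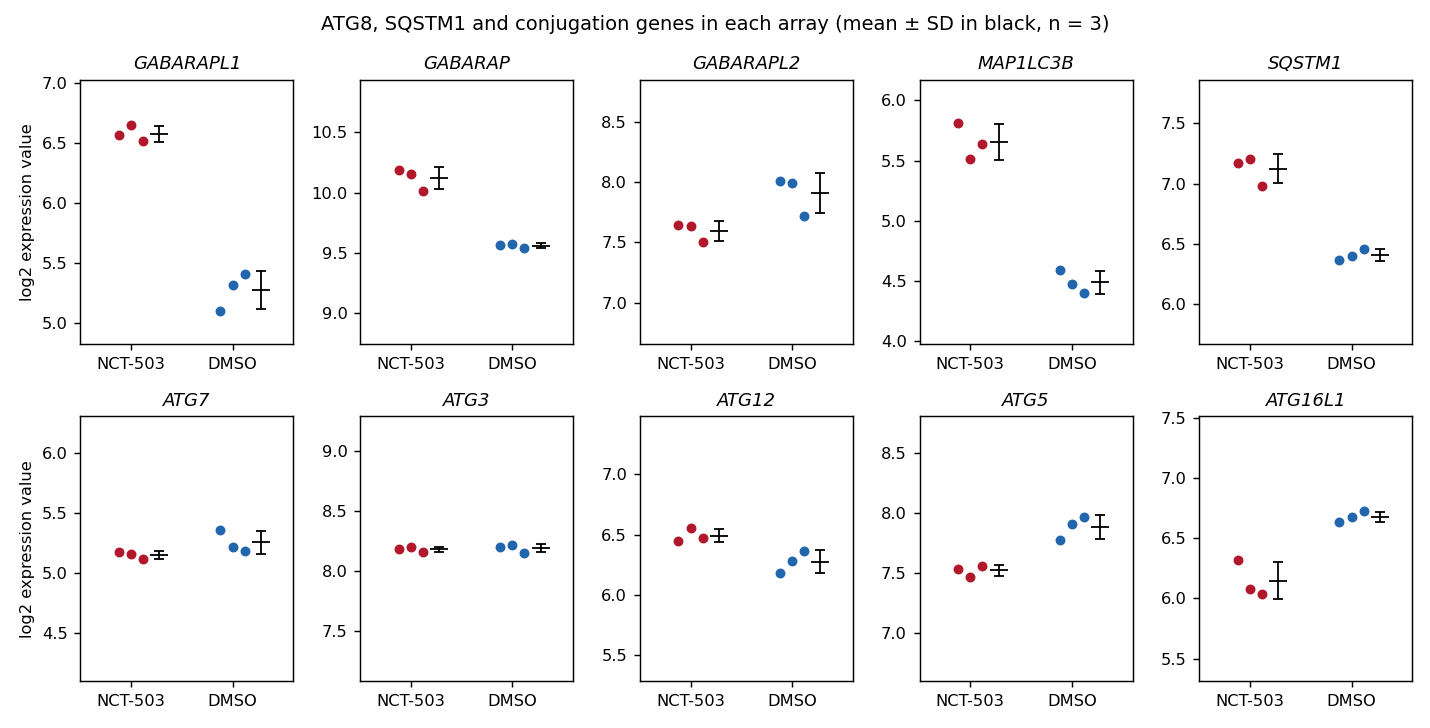
Log2 expression values of the 10 genes in each array, NCT-503 left of DMSO, with mean ± SD in black (n = 3 per group); every panel spans 2.2 log2 units around its own centre. GABARAPL1, GABARAP, MAP1LC3B and SQSTM1 lie higher in all NCT-503 arrays, ATG5 and ATG16L1 lower, and only ATG3 overlaps.

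GABARAPL1, an ATG8 gene of the GABARAP branch, had values of 6.56, 6.65 and 6.51 in NCT-503 arrays a, b and c, against 5.10, 5.32 and 5.41 in DMSO arrays a, b and c. The groups were more than 1 unit apart, and the DMSO arrays were spread more widely than the treated ones. GABARAPL1 rose by 1.30 ± 0.10 (SE, 95% interval 1.06 to 1.53, adjusted p = 0.000147 by limma), or 2.46-fold.

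MAP1LC3B encodes LC3B, the ATG8 protein most often used to mark autophagosomes. Its values were 5.82, 5.52 and 5.64 with NCT-503 and 4.59, 4.48 and 4.40 with DMSO. Every treated array was above every vehicle array. MAP1LC3B rose by 1.17 ± 0.10 (95% interval 0.93 to 1.41, adjusted p = 0.000228 by limma), or 2.25-fold. It has a near-identical copy, MAP1LC3B2, whose row was variable, at 5.64, 5.17 and 5.39 with NCT-503 and 4.71, 5.29 and 5.61 with DMSO, and was not called (0.20 ± 0.23, adjusted p = 0.545). The probes may not separate these genes, nor GABARAPL1 from its copy GABARAPL3, which was not analysed here.

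GABARAP, the founding member of its branch, had values of 10.19, 10.15 and 10.01 in treated arrays and 9.56, 9.58 and 9.54 in vehicle arrays. The vehicle arrays were nearly equal, and the treated arrays all lay above them. GABARAP rose by 0.56 ± 0.08 (95% interval 0.38 to 0.74, adjusted p = 0.00162 by limma), or 1.47-fold.

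Among the 4 ATG8 genes of the set, only GABARAPL2, also known as GATE-16, was not called. It had values of 7.65, 7.64 and 7.50 with NCT-503 and 8.01, 7.999 and 7.72 with DMSO. All treated arrays were below all vehicle arrays, but DMSO c was close to them. The change of -0.31 ± 0.10 (95% interval -0.56 to -0.07) did not pass (adjusted p = 0.0521 by limma). Without DMSO c it was -0.41 with an adjusted p of 0.0225.

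**Figure D2:**
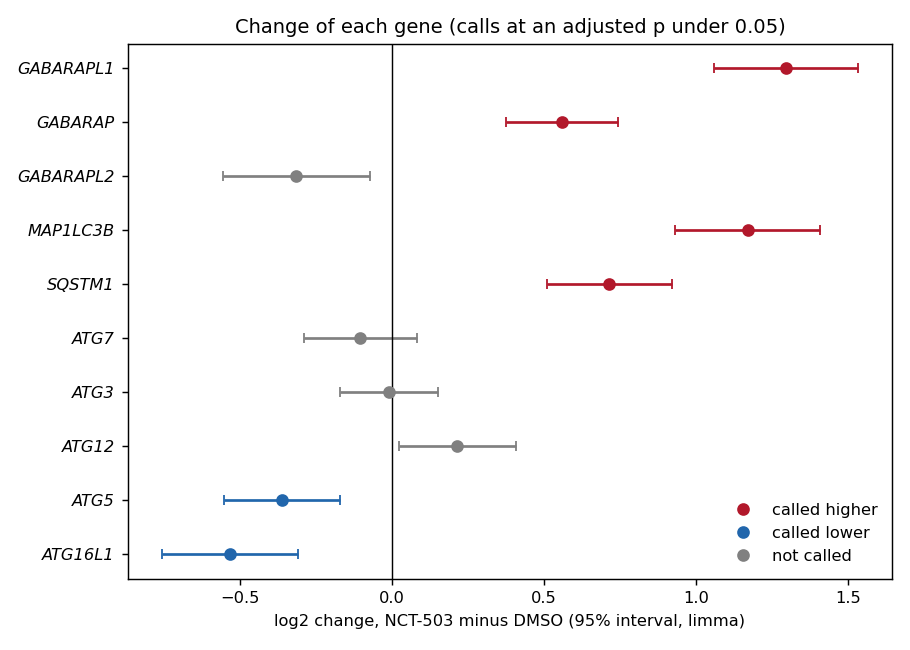
Log2 change of each gene, NCT-503 minus DMSO, with limma's 95% interval over 3 arrays per group; red genes were called higher, blue genes lower and grey genes not called. GABARAPL1 and MAP1LC3B have the largest rises of the 10, at 1.30 and 1.17, and ATG16L1 the largest fall, at -0.53.

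The size of the change was compared between ATG8 genes. For this and later pairs, the SE comes from the variance of the log2 difference within each group, not from limma. Within each array, the log2 difference between GABARAPL1 and GABARAP was higher with NCT-503 than with DMSO by 0.74 ± 0.11 (SE), that between MAP1LC3B and GABARAP by 0.61 ± 0.10, and that between GABARAPL1 and GABARAPL2 by 1.61 ± 0.18. In each of these pairs the 3 treated arrays lay outside the range of the 3 vehicle arrays, which gives p = 0.10 in a two-sided exact permutation test, the smallest that 3 against 3 arrays allow, and an adjusted p of 0.117 over the 7 pairs compared. With this test no pair could pass at 0.05, so its p-values show neither a difference nor its absence.

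Promoter sequences of the 10 genes were searched because several rose together. All 10 matched the RefSeq table (GRCh38.p14), with 13 start sites, and the 250 bases before each were read on the gene's strand. Motifs, searched on both strands, were the cAMP response element TGACGTCA of CREB and ATF factors, the C/EBP-ATF response element TGATGNAA, the antioxidant response element TGACNNNGC, the E-box CACGTG and the FOXO site GTAAACA. Of all 35116 windows of this length in the table, 1.65%, 3.14%, 10.9%, 6.34% and 2.98% held these motifs, in that order. Matches were found in 3 genes, 1 each, and none overlapped another motif. Whether this count exceeds what 13 windows drawn from the table would hold was not tested. The 3 windows are shown with the match in capitals. They belong to GABARAPL1 and MAP1LC3B, which rose, and to ATG3, which was not called.
GABARAPL1 (chr12:10212627-10212876, + strand): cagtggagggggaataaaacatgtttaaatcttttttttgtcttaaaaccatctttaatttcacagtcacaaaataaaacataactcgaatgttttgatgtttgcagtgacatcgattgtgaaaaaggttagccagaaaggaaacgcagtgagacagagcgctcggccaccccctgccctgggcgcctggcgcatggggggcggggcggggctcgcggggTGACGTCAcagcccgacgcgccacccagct
MAP1LC3B (chr16:87392086-87392335, + strand): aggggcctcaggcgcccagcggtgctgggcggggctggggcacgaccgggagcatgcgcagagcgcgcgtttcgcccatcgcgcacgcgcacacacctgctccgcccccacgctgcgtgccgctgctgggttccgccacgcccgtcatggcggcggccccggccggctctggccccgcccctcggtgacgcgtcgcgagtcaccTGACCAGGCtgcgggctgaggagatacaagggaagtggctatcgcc
ATG3 (chr3:112561963-112562212, - strand): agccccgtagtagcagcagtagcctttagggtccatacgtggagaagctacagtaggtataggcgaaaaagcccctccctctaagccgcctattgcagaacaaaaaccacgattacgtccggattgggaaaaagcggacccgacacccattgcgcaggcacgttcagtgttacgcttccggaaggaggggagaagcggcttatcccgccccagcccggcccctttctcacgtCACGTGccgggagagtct

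The GABARAPL1 match is a full cAMP response element that begins 30 bases before the start. MAP1LC3B holds an antioxidant response element that begins 46 bases before its start, and ATG3 an E-box 18 bases before its start. GABARAP and SQSTM1, which also rose, held none of the 5 motifs in these windows, nor did ATG5 and ATG16L1, which fell. Matches are descriptions of the letters and say nothing of binding.

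SQSTM1, also called p62, binds ubiquitin-tagged cargo and ATG8 proteins and is itself degraded by autophagy. Its values were 7.17, 7.21 and 6.98 in NCT-503 arrays and 6.36, 6.39 and 6.46 in DMSO arrays. The treated arrays all lay above the vehicle arrays by more than the spread within either group. SQSTM1 rose by 0.72 ± 0.09 (95% interval 0.51 to 0.92, adjusted p = 0.000931 by limma), or 1.64-fold. The within-array difference between MAP1LC3B and SQSTM1 was higher with NCT-503 by 0.45 ± 0.14, without overlap of the arrays (exact permutation p = 0.10, adjusted 0.117).

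Of the 5 genes of the conjugation machinery 2 fell and 0 rose by limma, while 17.1% of all genes tested fell and 33.5% were called in either direction. An unadjusted p under 0.05 was found for 3 of the 5 and for 43.8% of all genes tested. ATG7, the activating enzyme at its head, had values of 5.18, 5.16 and 5.12 with NCT-503 and 5.36, 5.22 and 5.19 with DMSO. The groups were separate by a narrow margin. Its change of -0.10 ± 0.08 (95% interval -0.29 to 0.08) did not pass (adjusted p = 0.354 by limma), and it was -0.05 without DMSO a.

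ATG3, the enzyme that transfers ATG8 proteins to lipid, was at 8.18, 8.20 and 8.16 in treated arrays and 8.20, 8.21 and 8.15 in vehicle arrays. Here the groups overlapped, and all 6 arrays were close together. The change was -0.01 ± 0.07 (adjusted p = 0.926 by limma), and its 95% interval ran from -0.17 to 0.15. Set against ATG7 within arrays, ATG3 differed in change by 0.09 ± 0.05 (exact permutation p = 0.10, adjusted 0.117), by 0.047 without DMSO a and by 0.0063 after quantile normalization.

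ATG12, the ubiquitin-like partner that becomes joined to ATG5, had values of 6.44, 6.55 and 6.47 with NCT-503 and 6.18, 6.28 and 6.37 with DMSO. All treated arrays were above all vehicle arrays, the nearest pair by less than 0.1 units. The change of 0.22 ± 0.08 (95% interval 0.02 to 0.41) did not pass on the deposited scale (adjusted p = 0.0828 by limma). It was called on the other 3 scalings, at 0.26 with arrays centred on their median (adjusted p = 0.0433), 0.28 with arrays centred on their 75th percentile (0.0321) and 0.30 after quantile normalization (0.0298). These scalings used the values of the genes tested, not of all rows.

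ATG5, the acceptor of ATG12, was at 7.54, 7.47 and 7.56 in NCT-503 arrays and 7.77, 7.91 and 7.96 in DMSO arrays. The treated arrays were tightly grouped below the vehicle arrays. ATG5 fell by 0.36 ± 0.08 on the log2 scale (95% interval -0.55 to -0.17, adjusted p = 0.0132 by limma). Without DMSO c the adjusted p was 0.0502.

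ATG16L1, which places the ATG12-ATG5 conjugate on the forming membrane, had values of 6.32, 6.08 and 6.04 with NCT-503 and 6.64, 6.68 and 6.72 with DMSO. NCT-503 a was the treated array nearest to the vehicle arrays, and the groups did not overlap. ATG16L1 fell by 0.53 ± 0.10 on the log2 scale (95% interval -0.76 to -0.31, adjusted p = 0.00482 by limma).

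ATG12 and ATG5, which are joined to each other as proteins, were also compared within arrays. ATG12 minus ATG5 was higher with NCT-503 than with DMSO by 0.58 ± 0.06, without overlap of the arrays (exact permutation p = 0.10, adjusted 0.117). ATG5 minus ATG16L1 differed by 0.17 ± 0.09 with overlapping arrays (exact permutation p = 0.30, adjusted 0.30). It was 0.099 without NCT-503 c and 0.11 after quantile normalization.

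**Figure D3:**
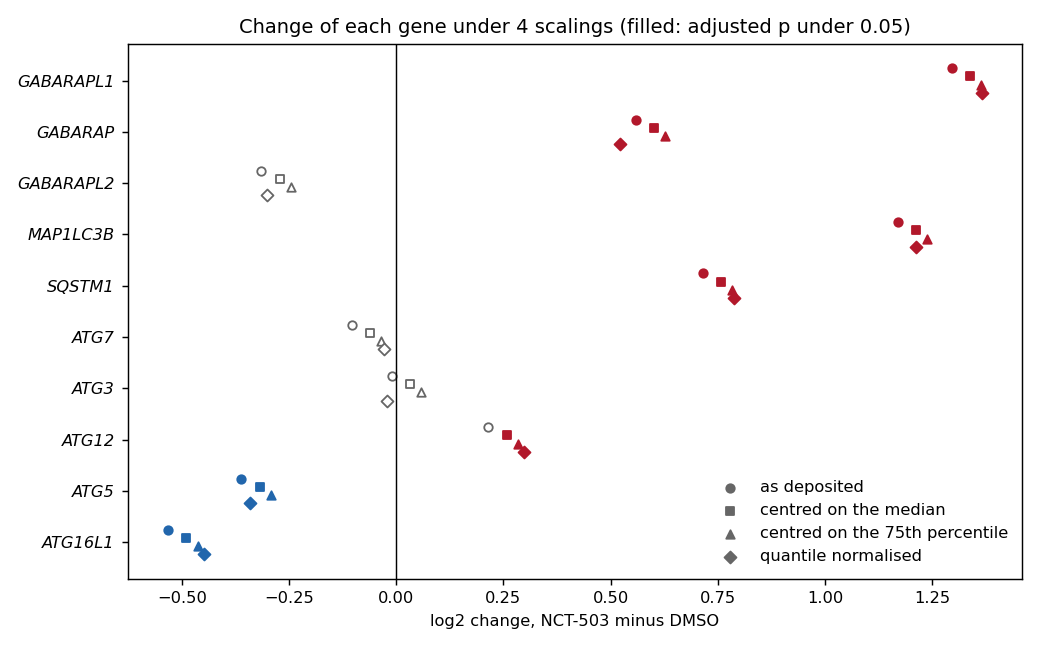
Log2 change of each gene, NCT-503 minus DMSO, on the deposited scale and under 3 other scalings; filled symbols have an adjusted p under 0.05. The 6 calls of the deposited scale are filled under all 4 scalings, ATG12 is filled under the 3 others, and ATG3 lies on either side of 0.

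The remaining genes of the pathway were read from lists ordered by step, chosen with earlier results of these data known. Of 75 listed genes 56 had a row, and 20 of these rose (35.7%) and 5 fell (8.93%), against 16.4% and 17.1% of all genes tested. Their median change was 0.17, against 0.06 over all genes tested. The count of falls depended on single arrays: it was 3 without NCT-503 b, 2 without DMSO b and 3 without DMSO c. The ATG4 proteases, BECN1 and NBR1 were not analysed here.

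Among other ATG8 and conjugation genes, 0 of 6 measured were called by limma (33.5% of all genes tested), and 1 had an unadjusted p under 0.05 (43.8% of all genes tested). They include the ATG8 genes MAP1LC3A, MAP1LC3B2 and MAP1LC3C, the last with a change of 0.22 ± 0.15 (adjusted p = 0.306 by limma). MAP1LC3A, the LC3A gene, had values of 4.89, 4.80 and 5.02 with NCT-503 and 4.30, 4.47 and 4.78 with DMSO. The groups did not overlap, and DMSO c was nearest to the treated arrays. Its change of 0.38 ± 0.13 did not pass (adjusted p = 0.0630), and it passed without DMSO c (0.52, adjusted p = 0.0179) and with arrays centred on their median or 75th percentile (adjusted p = 0.0438 and 0.0370).

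The ULK1 kinase complex starts autophagosome formation. Of its 5 measured genes, ATG13, a scaffold of the complex, rose by 0.43 ± 0.11 (adjusted p = 0.0189), a call lost without NCT-503 b (0.0604), NCT-503 c (0.0539) or DMSO c (0.0622). ULK1 itself was at 5.75, 5.57 and 5.85 in treated arrays and 5.81, 5.92 and 5.94 in vehicle arrays, which overlap, with a change of -0.17 ± 0.10 (adjusted p = 0.213), which was -0.09 without NCT-503 b. In the lipid kinase complex that acts next, UVRAG (0.43 ± 0.08, adjusted p = 0.00582) and ATG14 (0.34 ± 0.07, adjusted p = 0.0112) rose among 5 measured genes. Both are alternative partners of the BECN1 complex. Its kinase gene PIK3C3 and its partner gene PIK3R4 were, like BECN1, not analysed here. Genes called higher made up 20% of the ULK1 complex list and 40% of the lipid kinase list, against 16.4% of all genes tested.

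Of 7 measured genes that bring lipid to the growing membrane, WDR45B, which binds phosphoinositides, rose by 0.26 ± 0.08 (adjusted p = 0.0338) and TMEM41B, a lipid scramblase, fell by 0.32 ± 0.10 (adjusted p = 0.0392). Each is 14.3% of the list, against 16.4% higher and 17.1% lower over all genes tested. WDR45B kept its call only without NCT-503 c among the 6 arrays left out in turn (adjusted p of 0.0720 to 0.0907 without any other array), and lost it after quantile normalization (0.23, adjusted p = 0.0546) and with every row of the table tested (0.0570). TMEM41B lost its call without NCT-503 a (0.0919), NCT-503 b (0.112), DMSO b (0.113) or DMSO c (0.117), with arrays centred on their median (0.0611) or 75th percentile (0.0863), after quantile normalization (-0.24, adjusted p = 0.112) and with every row tested (0.0585).

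Cargo receptors are the proteins that, like SQSTM1, link cargo to ATG8 proteins. Of 13 other receptor genes measured, 8 rose (61.5%) and 1 fell (7.69%), against 16.4% and 17.1% of all genes tested, with a median change of 0.36. Without DMSO c, 5 rose and 0 fell, against 1795 and 2103 of all 14779 genes. OPTN, which binds ubiquitin on damaged mitochondria, had values of 5.96, 6.0005 and 6.09 with NCT-503 and 5.09, 5.10 and 5.16 with DMSO. The groups were far apart for their spread, and OPTN rose by 0.90 ± 0.07 (adjusted p = 0.000194 by limma), or 1.86-fold.

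TAX1BP1, another ubiquitin-binding receptor, was at 9.11, 9.06 and 9.24 in treated arrays and 8.20, 8.28 and 8.23 in vehicle arrays. It rose by 0.90 ± 0.08 (adjusted p = 0.000254), as much as OPTN. CALCOCO2, or NDP52, was at 6.78, 6.81 and 6.73 in treated arrays and 5.93, 6.33 and 6.07 in vehicle arrays. DMSO b lay nearest to the treated arrays, and CALCOCO2 rose by 0.66 ± 0.11 (adjusted p = 0.00371), or 1.58-fold.

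Smaller rises were those of NCOA4, the ferritin receptor (0.56 ± 0.07), TOLLIP (0.47 ± 0.10), PHB2 (0.40 ± 0.10), and the endoplasmic reticulum proteins SEC62 (0.36 ± 0.09) and RTN3 (0.24 ± 0.08). WDFY3, a large adaptor for protein aggregates, fell by 0.29 ± 0.07. The mitophagy receptors BNIP3 (-0.08 ± 0.08) and BNIP3L (0.19 ± 0.08) were not called, and BNIP3L ranged from 0.049 after quantile normalization (adjusted p = 0.678) to 0.26 with arrays centred on their 75th percentile (adjusted p = 0.0480). BNIP3L also passed limma's test with trend and robust eBayes (adjusted p = 0.00671) and over the brighter genes, those at or above the 50th percentile of mean level (0.0390). Several of these calls did not hold with 5 arrays, though the changes moved little, SEC62 to 0.34 and 0.35 and WDFY3 to between -0.29 and -0.27: SEC62 lost its call without DMSO a or DMSO c (adjusted p = 0.0670 and 0.0627), PHB2 without NCT-503 b, NCT-503 c, DMSO b or DMSO c (0.0541 to 0.0692), RTN3 without any array but DMSO b (0.0749 to 0.143) and after quantile normalization (0.0620), and WDFY3 without NCT-503 b, DMSO b or DMSO c (0.0580 to 0.0600).

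**Figure D4:**
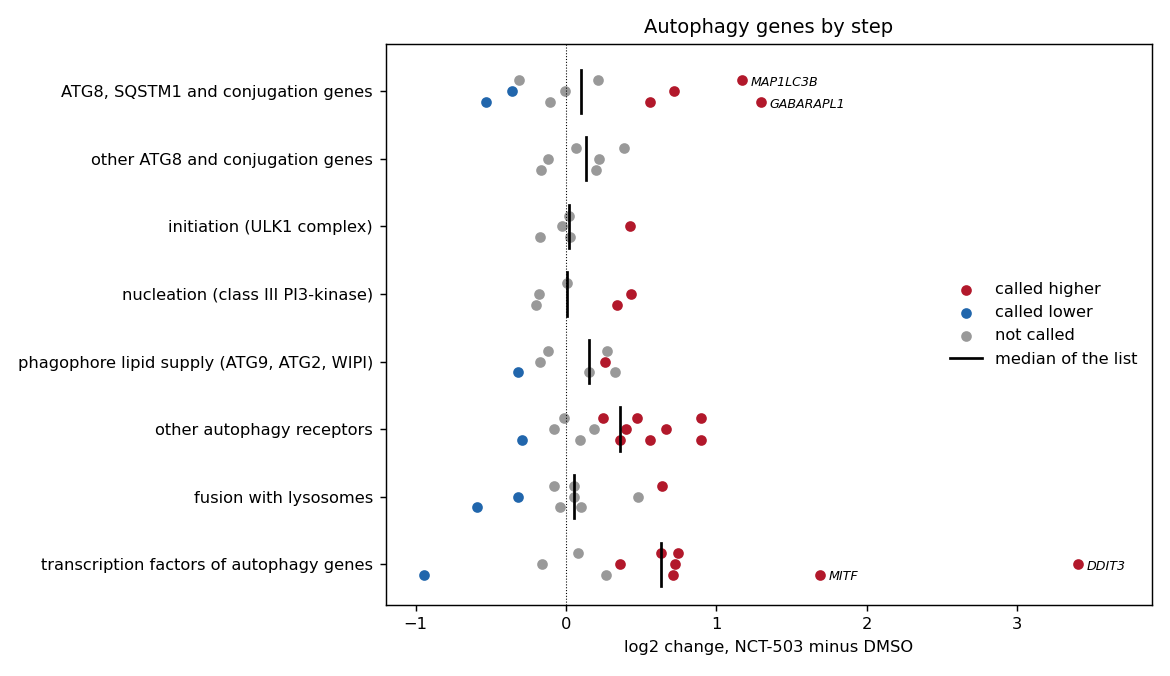
Log2 change, NCT-503 minus DMSO, of the 10 genes and of the 56 other measured autophagy genes by step; red points were called higher, blue lower and grey not called, and black bars are list medians. Medians are 0.36 for the other receptors and 0.63 for the transcription factors, and between 0.0047 and 0.15 for the lists of the other steps, where leaving out 1 array gave -0.06 to 0.09 for nucleation and -0.02 to 0.06 for initiation, and quantile normalization gave 0.0088 for lipid supply.

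Among 9 measured genes of fusion with lysosomes 1 rose and 2 fell (11.1% and 22.2%), against 16.4% and 17.1% of all genes tested. Called genes were thus about as frequent as among all genes. The calls belonged to subunits of tethering complexes. VPS11 was at 7.12, 6.91 and 6.94 with NCT-503 and 6.37, 6.40 and 6.28 with DMSO, and rose by 0.64 ± 0.09 (adjusted p = 0.00149). VPS18 was at 5.56, 5.18 and 5.37 with NCT-503 and 5.98, 6.03 and 5.88 with DMSO, and fell by 0.59 ± 0.11 (adjusted p = 0.00597). VPS33A fell by 0.32 ± 0.08 (adjusted p = 0.0157, and 0.0532 without DMSO b), and the count of rises was 2 in place of 1 without NCT-503 b.

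Transcription factors that act on autophagy genes rose in 7 of 11 cases (63.6%) and fell in 1 (9.09%), against 16.4% and 17.1% of all genes tested. Their median change was 0.63, against 0.06 over all genes tested. MITF, TFE3 and TFEB are related factors that bind E-boxes of lysosome and autophagy genes. Their relative TFEC, with means of 2.08 with NCT-503 and 2.00 with DMSO, was not called (0.08 ± 0.10, adjusted p = 0.578 by limma). MITF had values of 6.51, 6.57 and 6.55 with NCT-503 and 4.81, 4.84 and 4.92 with DMSO. Both groups were tight, and MITF rose by 1.69 ± 0.07 (adjusted p = 1.64e-05 by limma), or 3.22-fold.

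TFE3 was at 6.99, 6.81 and 6.80 in treated arrays and 6.05, 6.15 and 6.19 in vehicle arrays, and rose by 0.74 ± 0.09 (adjusted p = 0.000781). TFEB was at 4.92, 4.68 and 4.45 in treated arrays and 3.94, 4.12 and 3.81 in vehicle arrays, and rose by 0.73 ± 0.14 (adjusted p = 0.00617). ZKSCAN3, a zinc finger repressor of autophagy genes, was at 4.81, 4.42 and 4.29 in treated arrays and 5.43, 5.61 and 5.32 in vehicle arrays. It fell by 0.95 ± 0.15 (adjusted p = 0.00257), the only call in the lower direction among these factors.

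Stress factors that act on MAP1LC3B, SQSTM1 and related genes in other systems were also higher. DDIT3, which encodes CHOP, was at 8.08, 7.89 and 7.68 with NCT-503 and 4.27, 4.59 and 4.60 with DMSO. The gap between the groups was over 3 units, a rise of 3.40 ± 0.14 (adjusted p = 1.20e-05). ATF4 rose by 0.71 ± 0.08 (adjusted p = 0.000607), and NFE2L2, the NRF2 gene, by 0.63 ± 0.08 (adjusted p = 0.00114).

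The FOXO factors gave smaller values. FOXO3 was at 5.82, 5.49 and 6.03 in treated arrays and 5.82, 5.98 and 6.02 in vehicle arrays, which overlap, and was not called (-0.16 ± 0.14, adjusted p = 0.424). Its change was -0.016 without NCT-503 b and -0.28 without NCT-503 c. FOXO4 rose by 0.36 ± 0.07 (adjusted p = 0.00934), and FOXO1 was not called (0.26 ± 0.20, adjusted p = 0.347 by limma). Transcript levels of a factor do not measure its activity.

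**Figure D5:**
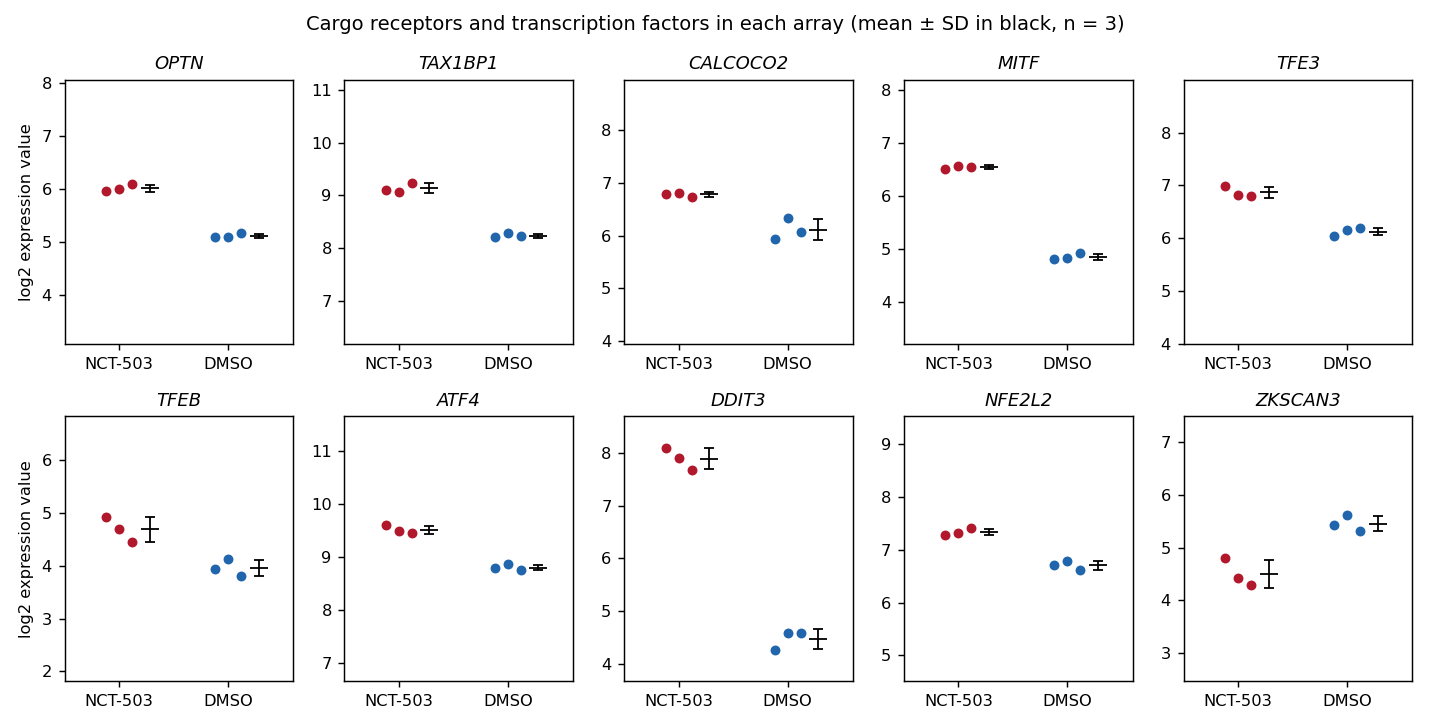
Log2 expression values of 3 cargo receptor genes and 7 transcription factor genes in each array, NCT-503 left of DMSO, with mean ± SD in black (n = 3 per group); every panel spans 5 log2 units around its own centre. All but ZKSCAN3 lie higher in the NCT-503 arrays, and DDIT3 shows the widest gap of the 10, at 3.40.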

How the data were processed

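RNA of 6 BE(2)-C samples, 3 per group, was hybridised after terminal labelling, per the labels' protocols. The deposited values were made by the authors with Partek, per the submitters' processing notes, and were taken as log2 values because of their range; the sources used here do not state how background, probe sets and scaling were handled. No scanner values entered the work, so signal over background is unknown, and the number of arrays limits the precision. Of 31135 rows, 15098 had 1 gene symbol, updated by Entrez identifier (RefSeq, GRCh38.p14). For 256 of the 14779 genes the brightest of several rows was taken. Each of the 10 genes had 1 row, above the 50th percentile of mean level, which MAP1LC3B reached only through its NCT-503 arrays.

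limma 3.58.1 in R 4.3.3 (lmFit, then eBayes with no trend) was run two-sided on both groups without covariates, with Benjamini-Hochberg adjustment over 14779 genes, and was tested on simulated data. Pairs of genes were compared by exact permutation of within-array differences. The genes, lists and tests were chosen with earlier results of these data known. Named beyond the 10 genes are up to 4 called genes per list with a change of at least 1.5-fold, and a set fixed by name (the ATG4 genes, MAP1LC3A, ULK1, BECN1, NBR1, TFEB, FOXO3, ATF4, DDIT3, NFE2L2). MAP1LC3B2, MAP1LC3C, ATG13, ATG14, UVRAG, WDR45B, TMEM41B, VPS33A, TFEC, FOXO1, FOXO4 and the smaller receptor changes were named after their values were seen. Samples sharing a letter did not deviate together (correlations of 0.0036, 0.0026 and 0.037 for a, b and c) and were not treated as pairs. Alternatives were trend with robust eBayes, the replicate block, 3 scalings, 2 filters on dim genes, averaged rows, all rows whether named or not, omission of single arrays, and an adjusted p under 0.01.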

Additional observations from a re-analysis of the deposited data

How the results depend on the processing

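The calls of GABARAPL1, MAP1LC3B, GABARAP, SQSTM1 and ATG16L1 held under all 15 alternative fits, and that of ATG5 under 14, the exception being the fit without DMSO c. Averaging rows could not alter the values of these genes, which have 1 row each. Trend with robust eBayes, the replicate block, the filters and the fit of all rows kept their changes and altered only the error estimate or the adjustment. The filters used the mean over all 6 arrays. MAP1LC3B, at 4.40 to 4.59 with DMSO, passed the 50th percentile only through its NCT-503 arrays, so that fit adds no support for its call. GABARAPL2, at a change of -0.31, was called with trend and robust eBayes (adjusted p = 0.00849), with the replicate block (0.0430) and among genes at or above the 25th or 50th percentile of mean level (0.0331 and 0.0163); leaving out single arrays gave -0.41 to -0.26. ATG12 was called on the 3 other scalings (0.26, 0.28 and 0.30) and, at 0.22, above the 50th percentile (adjusted p = 0.0269). ATG3 changed sign with arrays centred on the median or 75th percentile (0.033 and 0.059); leaving out single arrays gave -0.029 to 0.0023. ATG5 ranged from -0.42 to -0.32 in the same fits. MAP1LC3B2 ranged from -0.047 without DMSO a to 0.40 without DMSO c. ATG3 minus ATG7 was 0.0063 after quantile normalization. At an adjusted p under 0.01, 1 of the 10 genes was lower, and 13 other autophagy genes were higher and 2 lower. The replicate block ended the calls of WDR45B (adjusted p = 0.0705), TMEM41B (0.0593), PHB2 (0.0514), RTN3 (0.0794) and WDFY3 (0.0514); with it 3 other autophagy genes were lower, and leaving out single arrays gave 2 to 5. The filtered fits held fewer genes, and the fits without an array held fewer arrays. What caused the changed calls was not tested. Over all genes, centring on the 75th percentile gave 3345 higher and 2189 lower calls, against 2419 and 2534 on the deposited scale, and a median change of 0.13 in place of 0.06. Signal over background could not be judged from these values.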
